A study of Homo sapiens with 16 samples.

Results

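The replication-dependent histone genes supply the core histones H2A, H2B, H3 and H4 and the linker histone H1 that package newly copied DNA. In GENCODE 29, 71 protein-coding genes carry a symbol that starts with HIST1H, HIST2H, HIST3H or HIST4H, of 58735 genes in the count tables, and these 71 were taken by symbol and biotype, with no measured value used. They comprise 6 H1, 17 H2A, 18 H2B, 15 H3 and 15 H4 genes. The HIST1 cluster on chromosome 6 holds 55 of them, the HIST2 and HIST3 clusters on chromosome 1 hold 12 and 3, and HIST4H4 lies alone on chromosome 12. They were followed in 2 triple-negative breast cancer lines with a wild-type genotype label, MDA-MB-231 and SUM159PT. Cells were harvested 48 h after transfection by Lipofectamine2000 with an siRNA against the kinase YES1 (siYES1) or, as the non-targeting control, an siRNA against firefly luciferase (siNS). Each of the 4 groups had 4 libraries, which the design text calls technical replicates, so the p-values measure only the spread between these samples, which may be technical.

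Transcripts of these genes are the main class of animal messenger RNA that normally ends without a poly-A tail. Their 3′ end is cut just after a conserved stem-loop, which the stem-loop binding protein SLBP holds, with help from the U7 small nuclear ribonucleoprotein, and the messages accumulate in S phase and are degraded when DNA synthesis stops. Many of the genes also have a downstream cleavage and polyadenylation signal, and tailed histone messages are best known from differentiating or non-dividing cells. The libraries were selected on poly-T beads, so the counts measure the messages that poly-T captured and not the total amount of each. In bulk RNA, fewer cells making a message and less message per cell cannot be told apart.

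The annotated 3′ ends of the genes are shown first because the response to siYES1 is described by them further on. In GENCODE 29 transcripts (GRCh38), 32 of the 71 genes had a stem-loop 22 to 67 bases after the stop codon, found as a match to the 16-base histone consensus with at most 1 mismatch. In 35 genes the annotated model ends at the stop codon, so no sequence after it was searched. The 32 stem-loops took 6 forms, and 1 example of each is printed on its coding strand with the 4 loop bases in capitals. The first form was found in 17 genes, the next pair in 5 genes each, the fourth in 3 genes and the last pair in 1 gene each.
HIST1H2AC (chr6:26124669-26124684, + strand): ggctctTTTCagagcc
HIST1H2BD (chr6:26158587-26158602, + strand): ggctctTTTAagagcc
HIST1H4H (chr6:26285131-26285146, − strand): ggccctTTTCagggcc
HIST1H4I (chr6:27139654-27139669, + strand): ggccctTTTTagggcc
HIST1H2AG (chr6:27133515-27133530, + strand): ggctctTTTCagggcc
HIST1H3E (chr6:26225596-26225611, + strand): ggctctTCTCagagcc

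A poly-A signal was taken as AATAAA or ATTAAA on the transcript strand in the last 40 bases of an annotated coding transcript. It was found in 23 of the 71 genes (32.4%), against 81.2% of 19922 protein-coding genes searched the same way. In the 35 genes whose model ends at the stop codon, those last 40 bases are coding sequence. All 23 genes with a signal have annotated sequence after the stop codon. The lower share can thus reflect short gene models, and whether signals are scarcer in histone genes was not tested. In 4 of the 23 (HIST1H2BC, HIST1H2BD, HIST1H2BJ and HIST1H2BN) a spliced transcript carries the signal and holds no stem-loop. For HIST1H2BJ no stem-loop was found in any annotated coding transcript. In HIST1H4J, also counted among the 23, the signal lies before the stem-loop, at 15 against 22 bases after the stop codon. Windows of 26 bases around the signal are printed for genes whose counts changed or that led the counts of a line, with the signal in capitals. The signals lay 1158 bases after the stop codon in HIST1H2AC, 359 in the spliced HIST1H2BD transcript, 459 in HIST1H2BE, 1777 in HIST2H2BE, 793 in HIST1H3H, 662 in HIST1H4H and 422 in HIST3H2A.
HIST1H2AC (chr6:26139078-26139103, + strand): ggcatgaggtAATAAAaggtaatgca
HIST1H2BD (chr6:26171315-26171340, + strand): agttataattAATAAAatctgcggag
HIST1H2BE (chr6:26184626-26184651, + strand): taaaggaaaaAATAAAaccctcttcc
HIST2H2BE (chr1:149884467-149884492, − strand): tattgttattAATAAAgttaccaatt
HIST1H3H (chr6:27811268-27811293, + strand): tgtatgactaAATAAAatctgtataa
HIST1H4H (chr6:26281064-26281089, − strand): ataaaaggtgAATAAAatcaggtcac
HIST3H2A (chr1:228456987-228457012, − strand): tttatctgatATTAAAagtatttatg

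Library depth was 15680459 to 23451253 counts, and no libraries of a group were duplicates. YES1 was 13.8 ± 0.878 CPM with siYES1 against 62.9 ± 6.79 CPM with siNS in MDA-MB-231, and 17.2 ± 1.79 against 134 ± 24.9 CPM in SUM159PT (SD, n = 4 each). CPM (counts relative to the TMM-scaled library size) are comparable within a line. Both lines had at most 2 PGR counts over all libraries and expressed KRT8, KRT18 and VIM. The marker list also held ESR1, ERBB2 and EPCAM, whose levels are not given here, so the triple-negative status is not settled by these markers. Of 6 markers of immune, endothelial and fibroblast cells, CD3E had at most 1 count in a line; the 6 summed to 5.35 to 7.44 CPM with siYES1 and 8.22 to 13.5 CPM with siNS in MDA-MB-231, and to 17.6 to 23.2 CPM with siYES1 and 15.04 to 22.3 CPM with siNS in SUM159PT. Their part in the results was not tested. The SUM159PT columns carry the prefix S149 in the table, and the identity of that line was not tested. SUM159PT siNS replicate 1 stood apart: 20 S phase genes summed to 1157 CPM there, against 598 to 620 CPM in the other siNS libraries and 641 to 698 CPM with siYES1. The histone sums of SUM159PT, the number of called histone genes and their median, and the list counts are therefore also given without it. Fold changes of single genes include that library unless stated.

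Counts of the 71 histone genes were concentrated in few genes. In MDA-MB-231, 38 of the 71 genes had 10 or more counts summed over 8 libraries, 10 had 1 to 9 counts and 23 had none; in SUM159PT the numbers were 40, 14 and 17. There were 28 genes with 10 or more counts in each line and 11 with none in either. The floor of 3 counts over the 8 libraries of a line corresponds to 0.0211 CPM in MDA-MB-231 and 0.0195 CPM in SUM159PT. A gene without counts had a counted level below it. Some genes without counts in either line may not be countable. HIST1H3D, HIST1H2AK and HIST2H3PS2 share 100% of their 100-base windows with other genes, and HIST1H2AD shares 97.6%. Handling of reads with several matches is not stated, so these zeros need not mean absent messages. A mean of 1 CPM or more was reached by 17 genes in MDA-MB-231 and 14 in SUM159PT. Of the 48416 histone counts in MDA-MB-231, HIST1H2BK, an H2B gene, took 28.95%, the linker histone gene HIST1H1C 17.9% and HIST1H2AC 17.6%, and the first 5 genes together took 83.0%. Of the 19555 histone counts in SUM159PT, HIST3H2A took 37.7%, HIST1H1C 18.5% and HIST1H2BK 7.96%.

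With siYES1, summed histone levels were much lower in MDA-MB-231 and lower by a smaller margin in SUM159PT. In MDA-MB-231 the 71 genes summed to 218, 226, 225 and 233 CPM with siYES1, against 442, 484, 386 and 422 CPM with siNS, which left 52.0% of the siNS mean. The ranges of the 2 groups were far apart. In SUM159PT the sum was 124, 114, 102 and 103 CPM with siYES1, against 116, 166, 148 and 153 CPM with siNS, or 76.0% of the siNS mean. The groups overlapped there through siNS replicate 1 alone, and without that library 71.1% was left and the groups did not overlap.

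**Figure D1:**
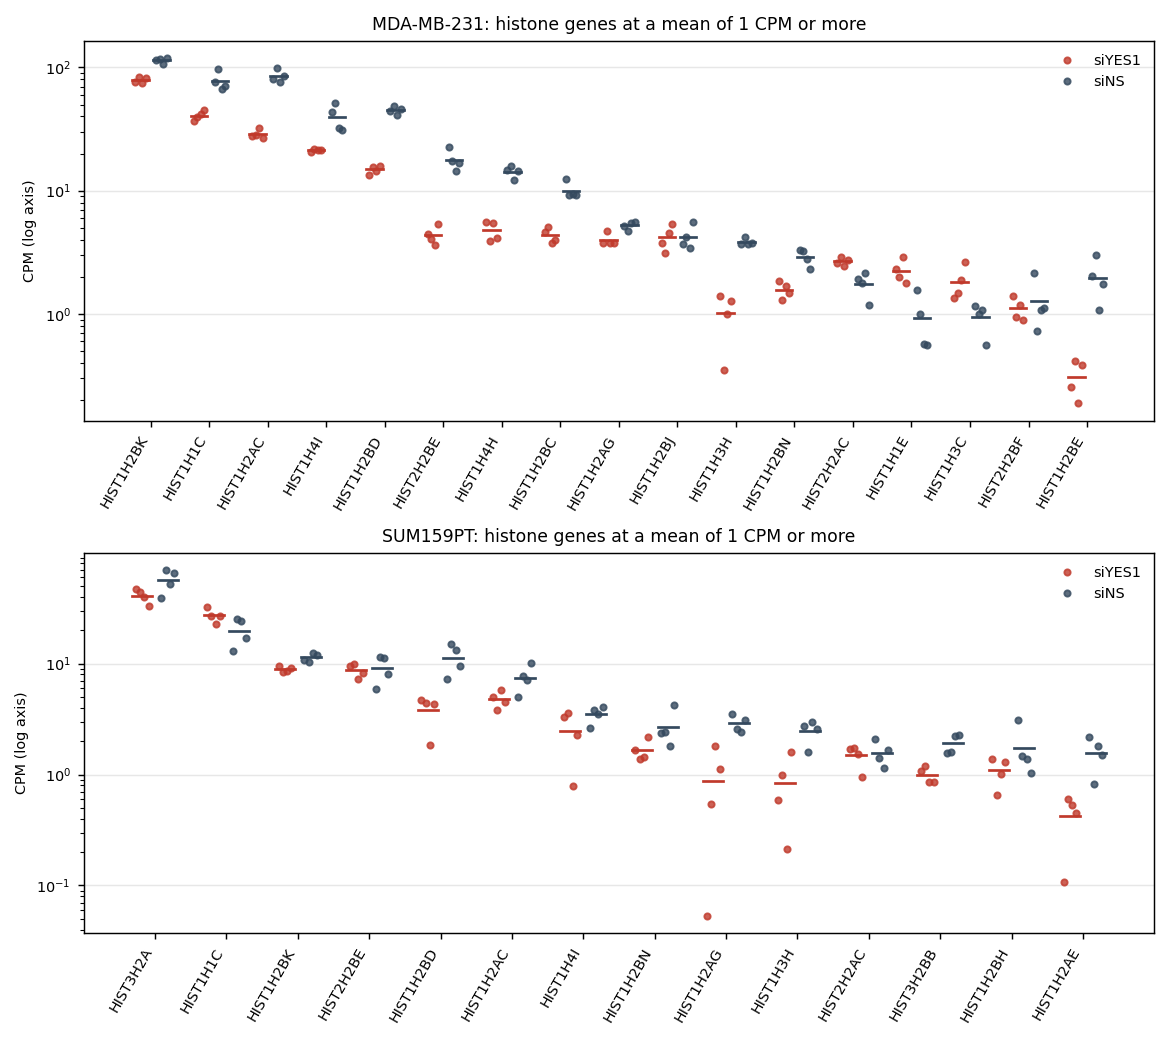
Level of each histone gene with a mean of 1 CPM or more, in CPM on a log axis, with a point for each library, a bar for the group mean and siYES1 left of siNS. HIST1H2BK, HIST1H1C and HIST1H2AC stand highest in MDA-MB-231 and HIST3H2A in SUM159PT; for most genes of MDA-MB-231 the siYES1 mean lies below the siNS mean.

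The classes differed in how much was left. In MDA-MB-231 the H2A genes summed to 37.6 ± 2.02 CPM with siYES1 against 94.7 ± 9.39 CPM with siNS (39.7% left), and the H2B genes to 112 ± 5.94 against 198 ± 12.3 CPM (56.3% left; SD, n = 4 each). For H4 50.4% was left and for H1 54.7%, and in these 4 classes the groups did not overlap. The H3 genes summed to 5.01 ± 1.04 CPM with siYES1 and 5.99 ± 0.566 CPM with siNS, and these groups overlapped. In SUM159PT 68.6% was left for H2A, 65.6% for H2B, 48.3% for H3 and 57.9% for H4, with no overlap between groups for H2B, H3 and H4. The H2A groups overlapped there through siNS replicate 1 alone: their sums were 40.5 to 54.9 CPM with siYES1, against 54.1 CPM in that library and 65.6 to 84.3 CPM in the other siNS libraries. The SUM159PT H1 sum was 27.7 ± 3.79 CPM with siYES1 and 20.6 ± 5.70 CPM with siNS (135%), with overlap. Without siNS replicate 1 what was left in SUM159PT was 63.4% for H2A, 62.7% for H2B, 51.8% for H3, 55.2% for H4 and 123% for H1, and of these classes H1 alone had overlapping groups. No p-value is attached to these sums. Scaling to total counts in place of TMM kept the direction of the sum over all genes, at 221 against 442 CPM in MDA-MB-231 and 104 against 154 CPM in SUM159PT.

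**Figure D2:**
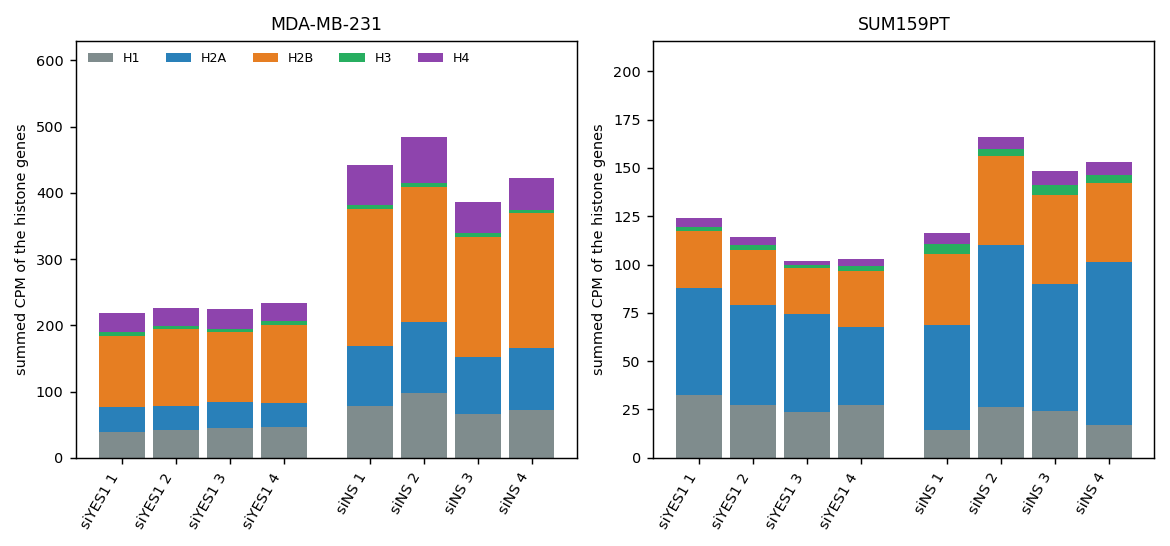
Summed CPM of the histone genes in each library of both lines, siYES1 libraries left of siNS libraries, as stacked bars with a colour for each class (H1, H2A, H2B, H3, H4). The siYES1 bars of MDA-MB-231 reach 218 to 233 CPM and the siNS bars 386 to 484 CPM; in SUM159PT the siYES1 bars reach 102 to 124 CPM and the siNS bars 116 to 166 CPM.

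In MDA-MB-231, 15 of the 38 tested histone genes fell with siYES1, 6 rose and 17 were not called by edgeR's quasi-likelihood test with Benjamini-Hochberg adjustment over all 19825 genes tested (call at adjusted p under 0.05). Of all genes tested, 20.4% fell and 18.7% rose, so 39.1% were called in either direction. Falling genes were thus 39.5% of the tested histone genes and rising ones 15.8%. The median log2 fold change was -0.20 for the histone genes and 0.01 for all genes, and that of the histone genes was -0.073 without siNS replicate 1, -0.36 without siNS replicate 2 and -0.31 without siNS replicate 4. The groups did not overlap in 14 genes that were lower and 5 that were higher with siYES1, against 19.1% and 18% of all genes.

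HIST1H1C (chr6:26055787-26056428, − strand), a linker histone gene, fell in MDA-MB-231. It had 36.6, 39.3, 41.7 and 44.9 CPM with siYES1, against 76.8, 96.3, 66.2 and 70.9 CPM with siNS. Every siYES1 library lay below every siNS library (log2 fold change -0.93 ± 0.11, where ± gives the SE, edgeR adjusted p = 3.06e-07). The other tested H1 gene, HIST1H1E, rose: it had 2.29, 2.00, 2.88 and 1.80 CPM with siYES1, against 1.57, 0.992, 0.568 and 0.562 CPM with siNS. These groups did not overlap either (log2 fold change 1.25 ± 0.30, edgeR adjusted p = 0.00197). Per kilobase of exon, HIST1H1C stood at 63.3 RPKM with siYES1 and 121 RPKM with siNS, far above HIST1H1E at 2.97 RPKM with siYES1 and 1.22 RPKM with siNS.

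Among the H2A genes, which encode the core histone that pairs with H2B, 4 of 9 tested fell and 1 rose in MDA-MB-231. HIST1H2AC (chr6:26124145-26139116, + strand), the most abundant of them, had 27.9, 28.2, 32.4 and 26.8 CPM with siYES1, against 81.0, 98.9, 75.8 and 86.0 CPM with siNS. The groups were far apart (log2 fold change -1.57 ± 0.10, edgeR adjusted p = 3.81e-11). HIST1H2AG was lower by a small margin, at 4.00 ± 0.470 CPM with siYES1 and 5.23 ± 0.403 CPM with siNS, with overlapping groups (log2 fold change -0.38 ± 0.15, edgeR adjusted p = 0.0492). That call was lost in 11 of 17 alternatives, 6 of them leaving out a library (replicates 1, 3 and 4 of each group), with an adjusted p of up to 0.362 in edgeR's joint fit of both lines. The rising gene was HIST2H2AC, with 2.61, 2.88, 2.44 and 2.76 CPM with siYES1, against 1.94, 1.78, 2.16 and 1.17 CPM with siNS. Its groups did not overlap (log2 fold change 0.60 ± 0.21, edgeR adjusted p = 0.0297). Leaving out siNS replicate 4, siYES1 replicate 2 or siYES1 replicate 4 ended that call, with edgeR adjusted p of 0.101, 0.0760 and 0.0609. HIST2H2AA3 and HIST2H2AA4, near-identical copies that share 100% and 96.8% of their 100-base windows with other genes, were each called as fallen on 31 and 40 counts, and their counts cannot be told apart. HIST2H2AA3 lost its call on leaving out any of 5 libraries (siNS replicates 1, 2 and 3, siYES1 replicates 1 and 4; edgeR adjusted p up to 0.0910), and also with DESeq2, the joint fit and the replicate block (adjusted p 0.0528 to 0.0880). HIST2H2AA4 lost its call without siNS replicate 1 or 2 or siYES1 replicate 2 or 4 (edgeR adjusted p 0.0522 to 0.0623) and in the joint fit (edgeR adjusted p = 0.0868).

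Of 12 tested H2B genes in MDA-MB-231, 6 fell and 0 rose by edgeR, DESeq2 or limma-voom, and 1 was higher at an unadjusted p under 0.05 by edgeR. The most abundant member, HIST1H2BK (chr6:27146418-27146798, − strand), had 76.1, 83.9, 74.7 and 82.8 CPM with siYES1, against 115, 116, 106 and 119 CPM with siNS. Its groups were narrow and well apart, though the fold change was modest (log2 -0.52 ± 0.08, edgeR adjusted p = 1.1e-05). It shares 28.4% of its windows with another gene, so part of its counts may belong there. HIST1H2BD (chr6:26158146-26171349, + strand) had 13.5, 15.7, 14.5 and 15.8 CPM with siYES1, against 44.5, 49.0, 41.1 and 46.3 CPM with siNS. Its log2 fold change of -1.60 ± 0.10 was close to that of HIST1H2AC (edgeR adjusted p = 2.75e-11). HIST2H2BE (chr1:149884459-149886652, − strand) had 4.46, 4.06, 3.63 and 5.33 CPM with siYES1, against 22.8, 17.4, 14.4 and 16.8 CPM with siNS. The highest siYES1 library lay far below the lowest siNS library, at a log2 fold change of -2.03 ± 0.15 (adjusted p = 8.77e-10, edgeR).

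Of the less abundant H2B genes in MDA-MB-231, HIST1H2BE fell furthest of all called histone genes. It had 0.255, 0.412, 0.188 and 0.385 CPM with siYES1, against 2.03, 3.03, 1.08 and 1.74 CPM with siNS, with no overlap (log2 fold change -2.64 ± 0.38, edgeR adjusted p = 8.05e-06). It overlaps a gene on the opposite strand and shares 25.6% of its windows with other genes, so its level is uncertain. HIST1H2BC fell to 4.36 ± 0.616 CPM with siYES1, against 10.0 ± 1.60 CPM with siNS (log2 fold change -1.20, edgeR adjusted p = 1.2e-06), and HIST1H2BN to 1.58 ± 0.243 against 2.91 ± 0.470 CPM (-0.89, edgeR adjusted p = 0.00197). HIST1H2BJ, at 4.19 ± 0.979 CPM with siYES1 and 4.21 ± 0.959 CPM with siNS, and HIST2H2BF, at 1.11 CPM with siYES1 and 1.27 CPM with siNS, were not called. Their log2 fold changes were -0.01 and -0.22, and both changed sign when single libraries were left out.

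H3 genes had low counts in MDA-MB-231 and moved both ways. HIST1H3H (chr6:27810064-27811300, + strand) had 1.40, 0.353, 1.00 and 1.28 CPM with siYES1, against 3.69, 4.18, 3.69 and 3.78 CPM with siNS. The siNS libraries were tightly grouped and all above the siYES1 libraries (log2 fold change -1.93 ± 0.26, edgeR adjusted p = 3.47e-06). HIST1H3B rose to 1.33 ± 0.296 CPM with siYES1, against 0.580 ± 0.285 CPM with siNS (log2 fold change 1.21 ± 0.36, edgeR adjusted p = 0.00994). HIST1H3C rose to 1.83 ± 0.581 CPM with siYES1, against 0.946 ± 0.264 CPM with siNS (0.94 ± 0.29, edgeR adjusted p = 0.0137), and lost its call without siYES1 replicate 4 (edgeR adjusted p = 0.0787). The groups of HIST1H3B and of HIST1H3C did not overlap.

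H4 genes also moved both ways in MDA-MB-231. HIST1H4I (chr6:27138588-27139881, + strand) had 20.5, 21.7, 21.5 and 21.4 CPM with siYES1, against 43.9, 51.4, 32.0 and 31.1 CPM with siNS. The siYES1 libraries agreed closely while the siNS libraries spread widely above them (log2 fold change -0.90 ± 0.13, edgeR adjusted p = 8.61e-06). HIST1H4H (chr6:26277609-26285638, − strand) had 5.61, 3.94, 5.45 and 4.11 CPM with siYES1, against 14.7, 15.8, 12.2 and 14.4 CPM with siNS. These groups were apart (log2 fold change -1.58 ± 0.14, edgeR adjusted p = 9.17e-09). HIST2H4A also fell (-2.04 ± 0.51, edgeR adjusted p = 0.00267), on 85 counts that its near-identical copy HIST2H4B may share. The 2 rising H4 genes were rare: HIST1H4A had 18 counts with siYES1 and 2 with siNS. Per total counts this was a ratio of 10.5 with a 95% counting interval of 2.52 to 93.4. HIST1H4C had 37 counts with siYES1 and 12 with siNS, with overlapping groups, and it lost its call without siYES1 replicate 2 or 3 (edgeR adjusted p 0.0770 and 0.0538). A joint edgeR fit of both lines ended the calls of HIST1H4C, HIST1H3B, HIST1H3C and HIST2H2AC, with adjusted p of 0.166, 0.148, 0.342 and 0.179.

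The genes were then read by annotated 3′ end, a feature that did not enter the choice of genes. The analysis plan listed an annotated transcript reaching past the stem-loop, and the poly-A signal was not in it. Of 13 tested genes reaching more than 50 bases past the stem-loop in MDA-MB-231, 10 fell and 0 rose. Their log2 fold changes were -2.64 to 0.88. In SUM159PT 7 of 21 such genes fell and 0 rose. The poly-A signal is used below. The 6 rising genes of MDA-MB-231 all had no poly-A signal at an annotated end, and 12 of the 15 falling genes had one. Of the 15 tested genes with a poly-A signal at an annotated end, 12 fell and all 15 had a log2 fold change below 0, so 0 were higher by edgeR at an adjusted or unadjusted p. Their median was -1.58. Of the 23 tested genes without one, 3 fell and 6 rose, and the median was 0.69. The 3 that fell, HIST1H1C, HIST1H4I and HIST1H2BK, were among the 5 histone genes with the most counts. Over 17 alternatives 9 to 12 genes with a signal fell and 0 rose, and their median was between -1.65 and -1.42. For genes without a signal the same alternatives gave 3 that fell, 2 to 7 that rose and a median of 0.031 to 0.82, the lowest at a mean of 1 CPM, where 6 such genes were tested and 3 rose. Genes without a signal were mostly rare: 17 of the 23 were under 1 CPM, of which 3 rose and 0 fell, while 4 of the 15 with a signal were under 1 CPM. Among genes at 1 CPM or more, 9 of 11 with a signal fell, and of 6 without one 3 fell and 3 rose. Level and annotated end thus overlap, their parts were not tested, and a missing signal can reflect a short gene model. Of the 23 genes without a signal, 16 had models that end at the stop codon, with no sequence after it to search. These 16 include 4 of the 6 genes that rose and 2 of the 3 without a signal that fell.

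**Figure D3:**
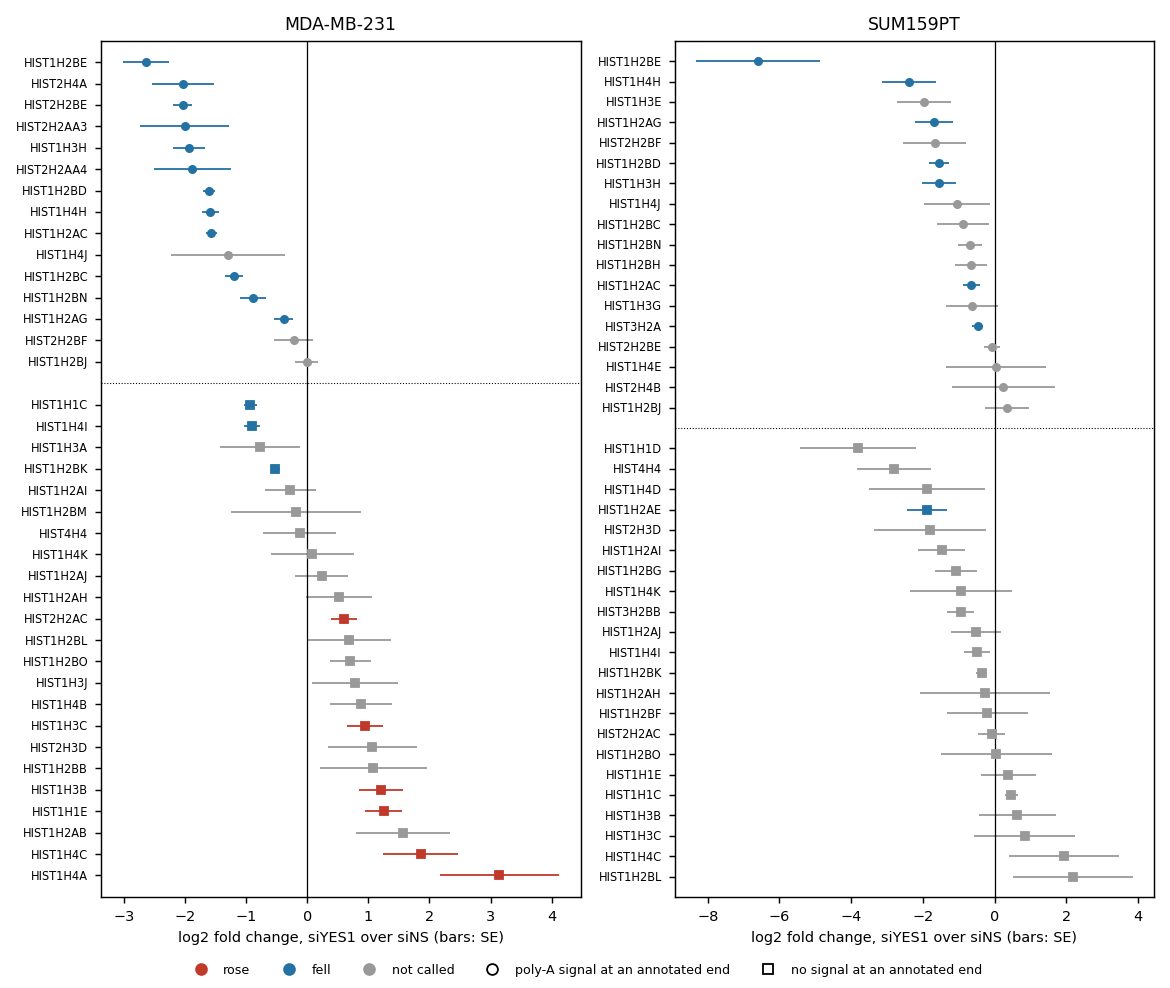
Log2 fold change (siYES1 over siNS) with its SE for each tested histone gene in both lines, circles above the dotted line for genes with a poly-A signal at an annotated end and squares below it for genes without one, red for rose, blue for fell and grey for not called. In MDA-MB-231 all 15 circles lie below 0 and the squares lie on both sides; HIST1H2BE in SUM159PT had 0 counts with siYES1, so its plotted value depends on the prior count.

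In SUM159PT, 8 of the 40 tested histone genes fell with siYES1, 0 rose and 32 were not called by edgeR, against 13.6% of all 20294 genes tested that fell, 12.1% that rose and 25.7% called in either direction. The share of histone genes that fell was 20%. At an unadjusted p under 0.05, 14 histone genes were lower and 1 was higher by edgeR. DESeq2 called 11 lower and 0 higher, and limma-voom 8 lower and 0 higher. The median log2 fold change was -0.66 for the histone genes and -0.08 for all genes. By class, 4 of 8 H2A, 2 of 14 H2B, 1 of 6 H3, 1 of 9 H4 and 0 of 3 H1 genes fell. In 10 histone genes every siYES1 library lay below every siNS library, and in none above, against 14.6% and 13.5% of all genes. Without siNS replicate 1 the same 8 genes were called and the median was -0.75. The number that fell was 5 without siNS replicate 3 or 4 or siYES1 replicate 1, and 4 without siYES1 replicate 2.

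HIST3H2A (chr1:228456979-228457873, − strand), an H2A gene of the small HIST3 cluster, was the most abundant histone gene of SUM159PT. It had 46.7, 43.8, 40.04 and 32.8 CPM with siYES1, against 39.3, 69.4, 52.0 and 65.9 CPM with siNS. The groups overlapped through siNS replicate 1 (log2 fold change -0.47 ± 0.15, edgeR adjusted p = 0.0323). Leaving out any 1 of siNS replicates 2 and 4 or siYES1 replicates 2, 3 and 4 ended that call, with edgeR adjusted p of 0.0539 to 0.121. HIST1H2AC had 4.97, 3.83, 5.73 and 4.52 CPM with siYES1, against 4.99, 7.70, 7.11 and 10.1 CPM with siNS. These groups overlapped too (-0.65 ± 0.23, edgeR adjusted p = 0.0457), and the call was lost on leaving out any of siNS replicates 2, 3 and 4 or siYES1 replicates 1, 2 and 4 (edgeR adjusted p 0.0699 to 0.178), with limma-voom (adjusted p = 0.0711) and with the replicate block (edgeR adjusted p = 0.0521). HIST1H2AE had 0.107, 0.601, 0.530 and 0.452 CPM with siYES1, against 2.19, 0.8288, 1.79 and 1.51 CPM with siNS. Its groups did not overlap and the call held under each alternative that gave it a value (-1.89 ± 0.55, edgeR adjusted p = 0.0169). HIST1H2AG fell to 0.883 ± 0.755 CPM with siYES1, against 2.90 ± 0.494 CPM with siNS (-1.70 ± 0.54, edgeR adjusted p = 0.0266), and was not called without siNS replicate 4 or siYES1 replicate 2 (edgeR adjusted p 0.0696 and 0.0829).

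HIST1H2BD gave the lowest adjusted p among the histone genes of SUM159PT. It had 4.65, 4.43, 1.86 and 4.34 CPM with siYES1, against 7.29, 15.1, 13.1 and 9.44 CPM with siNS. Its groups did not overlap and the call held under each of 17 alternatives (log2 fold change -1.55 ± 0.28, edgeR adjusted p = 0.000435). HIST1H2BE had 0 counts with siYES1 and 45 with siNS, spread as 20, 18, 7 and 0 over the siNS libraries, so it was at least 17.6-fold lower against a floor of 3 counts over the group (edgeR adjusted p = 0.0108). Limma-voom did not call it (adjusted p = 0.0609). HIST1H3H fell to 0.841 ± 0.585 CPM with siYES1, against 2.48 ± 0.609 CPM with siNS (-1.54 ± 0.47, edgeR adjusted p = 0.0229). HIST1H4H fell to 0.191 ± 0.1997 against 1.03 ± 0.411 CPM (-2.39 ± 0.75, edgeR adjusted p = 0.0257). The calls of HIST1H3H and HIST1H4H were each lost on leaving out any of 4 libraries: siNS replicate 3 or 4 or siYES1 replicate 1 or 3 for HIST1H3H, and siNS replicate 3 or siYES1 replicate 1, 2 or 4 for HIST1H4H.

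Other abundant histone genes were not called in SUM159PT. HIST1H1C had 32.2, 27.1, 22.9 and 26.9 CPM with siYES1, against 12.9, 25.3, 24.0 and 16.8 CPM with siNS, with overlapping groups (log2 fold change 0.46 ± 0.18, edgeR adjusted p = 0.0723). Leaving out siNS replicate 2 or 3 brought it to an edgeR adjusted p of 0.0200 or 0.0496. HIST1H2BK averaged 8.89 ± 0.436 CPM with siYES1 and 11.4 ± 0.990 CPM with siNS (-0.36 ± 0.15, edgeR adjusted p = 0.0948), and its groups did not overlap. HIST2H2BE had 9.57, 10.0, 7.27 and 8.18 CPM with siYES1, against 5.95, 11.5, 11.2 and 8.09 CPM with siNS. Those groups were interleaved (-0.07 ± 0.21, edgeR adjusted p = 0.85). HIST3H2BB, the H2B neighbour of HIST3H2A, was at 0.995 ± 0.172 CPM with siYES1 and 1.91 ± 0.376 CPM with siNS (-0.94 ± 0.38, edgeR adjusted p = 0.0767). With total counts as the scaling both were called as lower by edgeR, at an adjusted p of 0.0165 for HIST1H2BK and 0.0336 for HIST3H2BB. By annotated end, 7 of 18 tested genes with a poly-A signal fell (median -0.78), and 1 of 22 without one, HIST1H2AE, fell (median -0.43). Models of 12 of those 22 genes end at the stop codon. Over 17 alternatives 3 to 8 genes with a signal fell, at medians of -1.23 to -0.61. Of those without one, 1 to 4 fell, at medians of -0.62 to -0.14, so the ranges of the medians met. Within each alternative the median with a signal was the lower. It was -0.81 against -0.62 without siNS replicate 1 and -0.61 against -0.51 without siYES1 replicate 2. The fewest falls with a signal came without siYES1 replicate 2, and 4 came without siNS replicate 3 or 4 or siYES1 replicate 1 or 4.

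The lines differed in the response of 3 of 28 histone genes, a smaller share than among all genes. The difference was tested as the interaction of line and siRNA in edgeR over all 16 libraries, for the 28 histone genes counted in both lines. Of all 17294 genes tested, 22.5% were called, 14% with a higher fold change in SUM159PT and 8.55% with a lower one. The 3 called histone genes all had a higher fold change in SUM159PT than in MDA-MB-231. For HIST2H2BE the fold changes were -0.07 in SUM159PT and -2.03 in MDA-MB-231, a fitted difference of 2.05 ± 0.28 log2 units (edgeR adjusted p = 9.79e-06). For HIST1H1C they were 0.46 and -0.93, with a difference of 1.49 ± 0.23 (edgeR adjusted p = 4.26e-05). HIST1H2AC fell in both lines, by 0.65 log2 units in SUM159PT and by 1.57 in MDA-MB-231, with a difference of 1.01 ± 0.22 (edgeR adjusted p = 0.00162). These 3 calls held under all 24 alternatives. Without SUM159PT siYES1 replicate 3 the number of called histone genes was 6. No histone gene was called with a lower fold change in SUM159PT by edgeR, 3 were at an unadjusted p under 0.05, and DESeq2 called 1 and limma-voom 2.

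Of the 28 genes tested in both lines, 6 fell in both: HIST1H2AC, HIST1H2AG, HIST1H2BD, HIST1H2BE, HIST1H3H and HIST1H4H. They were 100% of the 6 that fell in SUM159PT and 50% of the 12 that fell in MDA-MB-231, and 7.89% of all genes tested in both lines fell in both. Of their 6 calls in SUM159PT, that of HIST1H2BD alone held under each alternative, with the others' lost calls given beside each gene. All 6 have a poly-A signal at an annotated end. For HIST1H2BD the log2 fold changes were -1.55 ± 0.28 in SUM159PT and -1.60 ± 0.10 in MDA-MB-231, with a fitted difference of 0.15 ± 0.29. Across the 28 genes the fold changes had a Pearson r of 0.61 and a Spearman rho of 0.53, given as a description because the genes of a line share libraries. HIST1H2BE, whose SUM159PT value depends on the prior count, was the lowest point in both lines, and without it r was 0.51 and rho 0.48 over 27 genes.

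**Figure D4:**
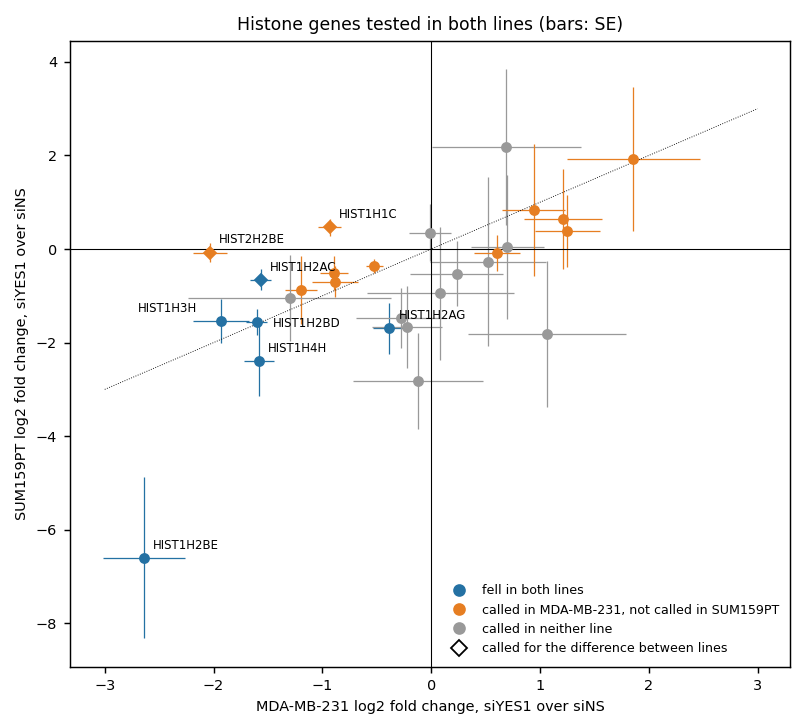
Log2 fold change (siYES1 over siNS) in SUM159PT on the vertical axis against that in MDA-MB-231 on the horizontal axis, with SE bars, for the 28 histone genes tested in both lines. The 6 genes that fell in both lines (blue) lie below 0 on both axes, and the 3 genes called for the difference (diamonds), HIST2H2BE, HIST1H1C and HIST1H2AC, lie above the dotted line of equal values; HIST1H2BE had 0 siYES1 counts in SUM159PT, so its value depends on the prior count.

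Which histone genes gave counts at all differed between the lines in runs of neighbouring genes; the runs below were picked after the values were seen. On chromosome 6 the 15 consecutive genes from HIST1H4D to HIST1H2BI (chr6:26188765-26273356) had 4 counts in all MDA-MB-231 libraries together, with 13 genes at 0. In SUM159PT the same 15 genes had 734 counts, and 9 of them reached 10. The 3 genes of the HIST3 cluster (chr1:228424845-228460470) had 7611 counts in SUM159PT and none in MDA-MB-231. Per total counts and against a floor of 3 counts over the group, HIST3H2A was at least 832-fold higher in SUM159PT than in MDA-MB-231 with siYES1 and at least 1524-fold higher with siNS. HIST1H2BH, in the HIST1 stretch, was at least 22.7-fold higher with siYES1 and at least 46.5-fold higher with siNS. The reverse held for the 6 genes from HIST1H2AA to HIST1H4B, with 2 counts in SUM159PT and 106 in MDA-MB-231. HIST1H2BE and HIST1H4H, the neighbours on either side of the HIST1 stretch, were counted in both lines.

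**Figure D5:**
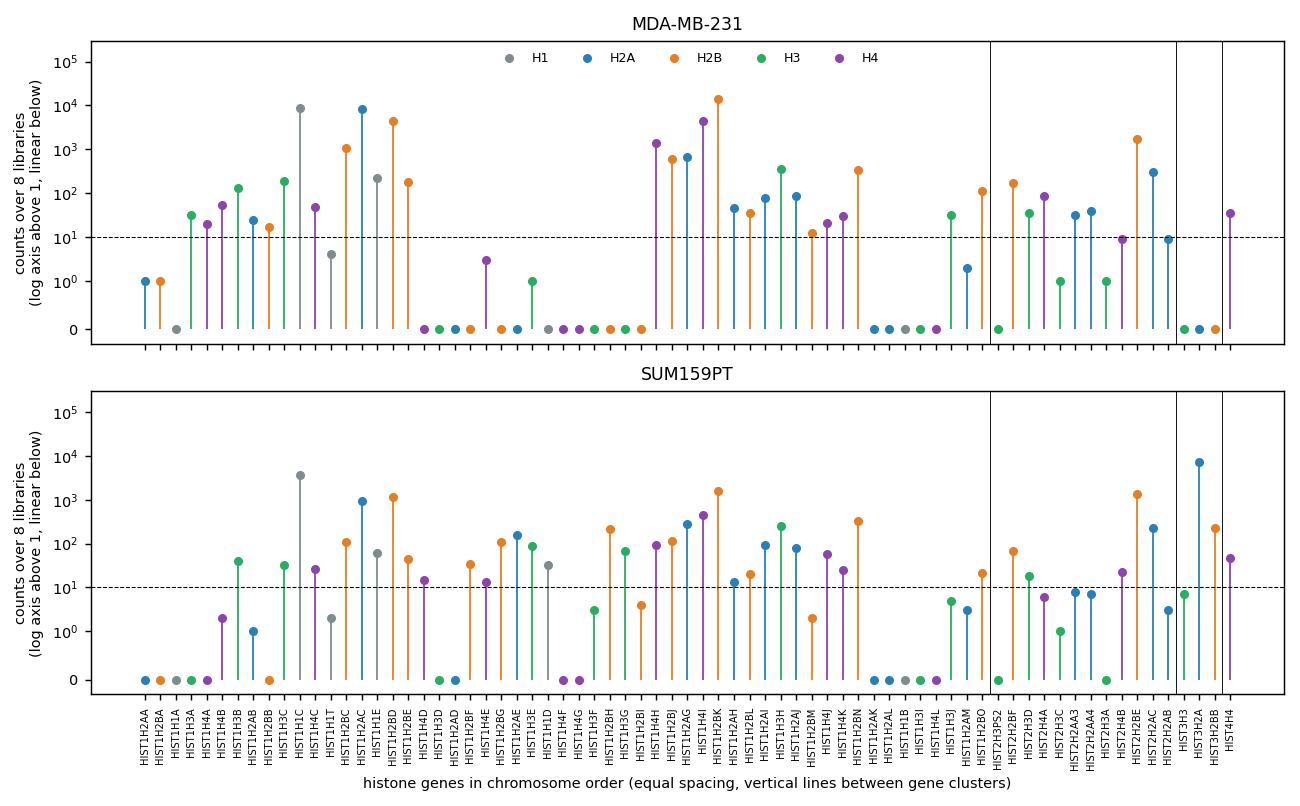
Counts summed over the 8 libraries of each line for the 71 histone genes in chromosome order, with equal spacing, colours for the classes and an axis that is logarithmic above 1 count; the dashed line marks 10 counts. The stretch from HIST1H4D to HIST1H2BI and the HIST3 cluster are at or near 0 in MDA-MB-231, while 9 and 2 of their genes pass 10 counts in SUM159PT.

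H2A and H2B genes often lie head to head and share the DNA between their starts, and such neighbours did not always respond together. There were 12 pairs of the 71 genes with starts at most 500 bases apart on opposite strands. In MDA-MB-231, HIST2H2BE fell (-2.03) while HIST2H2AC, 322 bases away, rose (0.60). HIST1H2BC and HIST1H2AC, 218 bases apart, both fell, by 1.20 and 1.57 log2 units. HIST1H2BK fell (-0.52), and its neighbour HIST1H2AH, 330 bases away, had a log2 fold change of 0.52 that was not called. In SUM159PT the HIST2H2BE and HIST2H2AC pair had -0.07 and -0.09, neither called, and HIST2H2AC was at 0.07 without siNS replicate 1. HIST2H2AC shares 17.2% of its windows with other H2A genes, so its counts are uncertain.

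The promoters hold the motifs for which these genes are known. The octamer ATTTGCAT, the site of the transcription factor POU2F1 known from H2B genes, was searched on both strands in the 250 bases before the RefSeq start (GRCh38.p14) of the 61 genes with an entry. It was found in 21 of the 61, against 1.66% of 27305 promoters: 11 of 16 H2A, 9 of 13 H2B, 1 of 13 H3, 0 of 6 H1 and 0 of 13 H4 genes. These are counts of genes and not of separate sites. The H3 match, in HIST1H3D, is the same site as that of HIST1H2AD. Single sites also serve both genes of HIST1H2AA/HIST1H2BA, HIST1H2AG/HIST1H2BJ, HIST1H2AJ/HIST1H2BM and HIST1H2AM/HIST1H2BO. TATAAA was found in 41 of 61 against 11.13% of all promoters, and CCAAT in 51 of 61 against 33.04%, and none of these motifs contains another. A single octamer serves as the match in both promoters of the HIST2H2BE and HIST2H2AC pair, shown with that of HIST1H2BK because these 3 genes differed in response; capitals mark the octamer or its reverse complement.
HIST2H2BE (chr1:149886710-149886739, − strand): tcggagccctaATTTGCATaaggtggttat
HIST2H2AC (chr1:149886710-149886739, + strand): ataaccaccttATGCAAATtagggctccga
HIST1H2BK (chr6:27146886-27146915, − strand): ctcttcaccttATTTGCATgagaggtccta
In MDA-MB-231, 4 of 12 tested genes with an octamer fell and 1 rose, and of 20 with a promoter entry and no octamer 9 fell and 3 rose. In SUM159PT 3 of 11 with an octamer and 4 of 23 without one fell. Over all genes tested 20.4% fell and 18.7% rose in MDA-MB-231, and 13.6% fell in SUM159PT. These are few genes, and a link between octamer and response was not tested.

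Replacement histone genes and other histone variants, most of whose messages are polyadenylated and not tied to S phase, more often rose than fell in MDA-MB-231. Among them H2AFX is known to give a stem-loop-ended message as well as a tailed one, and CENPA is expressed mainly in G2. Their 12 genes summed to 2224 ± 33.1 CPM with siYES1 against 1855 ± 115 CPM with siNS in MDA-MB-231, and to 2544 ± 43.1 against 2243 ± 41.3 CPM in SUM159PT (SD, n = 4 each). The 71 replication-dependent genes summed to less, at 225 against 434 CPM in MDA-MB-231 and 111 against 146 CPM in SUM159PT. CPM are not scaled for gene length, and models of 35 of the 71 genes end at the stop codon. The share of each set among tailed histone messages was thus not measured. In MDA-MB-231 7 of 12 rose and 3 fell (median log2 fold change 0.28), against 18.7% and 20.4% of all genes, and in SUM159PT 4 rose and 2 fell (median 0.09), against 12.1% and 13.6%. H2AFZ, which encodes the variant H2A.Z, rose to 322 ± 7.25 CPM with siYES1, against 177 ± 30.8 CPM with siNS in MDA-MB-231 (log2 fold change 0.86, edgeR adjusted p = 2.47e-07). CENPA, the centromeric H3 variant, rose in both lines, with log2 fold changes of 1.18 in MDA-MB-231 and 1.15 in SUM159PT. H2AFX, whose product is phosphorylated at DNA breaks, rose in MDA-MB-231 (0.39) and was not called in SUM159PT (0.12). H3F3A, one of the genes for H3.3, fell in both lines, by 0.28 log2 units in MDA-MB-231 cells and by 0.39 in SUM159PT, and H3F3B fell in MDA-MB-231 by 0.22. H2AFJ, another replacement H2A gene, fell in both lines, by 1.03 in MDA-MB-231 and 0.66 in SUM159PT. The linker histone gene H1F0 rose in SUM159PT (0.37, edgeR adjusted p = 0.0209) and was not called in MDA-MB-231 (-0.06).

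Genes that transcribe, process and degrade histone messages were mostly higher with siYES1 in MDA-MB-231. Of the 19 genes of histone 3′ end processing, 15 rose and 0 fell in MDA-MB-231 (median 0.36). Over all genes tested 18.7% rose and 20.4% fell in MDA-MB-231, and 12.1% rose and 13.6% fell in SUM159PT. SLBP, which binds the stem-loop, rose to 137 ± 9.45 CPM with siYES1, against 100 ± 13.2 CPM with siNS (0.45, edgeR adjusted p = 0.000354). ZNF473, a protein of the U7-dependent cleavage step, rose by 1.42 and the U7 Sm-like protein gene LSM11 by 0.72, while LSM10 was not called (0.02). In SUM159PT 5 of the 19 rose and 1 fell, NCBP1 (-0.67), with LSM11 at 0.97 and SLBP not called (-0.03, edgeR adjusted p = 0.903). Of 10 genes of histone gene transcription, 5 rose and 0 fell in MDA-MB-231, among them NPAT, the coactivator of histone promoters (0.36), and CDK2, whose kinase activates it (1.61). In SUM159PT 4 rose and 3 fell, with CDK2 at 1.15, and CASP8AP2, a partner of NPAT, fell by 0.52. Of 17 genes of histone messenger decay, 11 rose and 1 fell in MDA-MB-231 and 7 rose and 0 fell in SUM159PT, where 2 were lower at an unadjusted p under 0.05 by edgeR and DESeq2 called 1 of them; ERI1, the exonuclease that trims the stem-loop end, rose in both, by 0.86 in MDA-MB-231 and 0.58 in SUM159PT. Of 16 cleavage and polyadenylation genes, 8 rose and 1 fell in MDA-MB-231, the one being PABPC1 (-0.61), and 2 rose and 2 fell in SUM159PT, close to the shares of all genes.

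The chaperones that carry histones to DNA and the genes of DNA replication were counted in the same way, and a difference between lines was not tested for any list. Of 25 chaperone genes, 17 rose and 0 fell in MDA-MB-231, against 18.7% and 20.4% of all genes, with ASF1B at 1.02, CHAF1A at 0.62, CHAF1B at 0.66 and NASP at 0.36. In SUM159PT 3 rose and 4 fell, close to the 12.1% and 13.6% of all genes, among them CHAF1B (-1.07), while ASF1B, CHAF1A and NASP were not called. Of 20 S phase genes, 19 rose and 0 fell in MDA-MB-231, at a median of 0.71, and their sum was 2779 ± 47.2 CPM with siYES1 against 1790 ± 107 CPM with siNS. In SUM159PT 2 rose and 5 fell (median -0.28), and 4 rose and 5 fell (median 0.13) once siNS replicate 1 was left out. Leaving it out gave 6 rising and 2 falling replacement histone genes, 8 and 1 of 3′ end processing, 9 and 2 of decay, 4 and 2 of transcription, 3 and 3 of polyadenylation and 4 and 6 chaperones. Calls over all genes also grew there: 3078 of 19747 rose and 3196 fell, against 2454 and 2766 of 20294 with that library. In MDA-MB-231 DESeq2 and limma-voom also called 0 genes lower in the transcription, 3′ end processing, chaperone and S phase lists, and at an unadjusted p under 0.05 edgeR had 1 lower gene, in the chaperone list. These lists were read as counts and no test across a list was made. In MDA-MB-231 the S phase sum was thus higher where the sum of the replication-dependent histone genes was lower. The relation of these sums was not tested.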

How the data were processed

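Polyadenylated RNA was sequenced from 16 libraries. The submitters' processing notes name HISAT2 2.0.5, featureCounts 1.5.0-p3 and the build hg38, and the authors deposited raw gene counts in 1 table per line. The annotation release, strand setting and handling of reads with several matches are not stated by the sources at hand, and the labels' protocols name both a directional and a non-directional option, so near-identical and overlapping histone genes are uncertain. All gene IDs matched GENCODE 29, which gave symbols, exons and transcripts.

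Counts of each line were scaled by TMM and fitted with edgeR 4.0.16 under R 4.3.3, for genes with 10 or more counts over the 8 libraries, by the quasi-likelihood F test with Benjamini-Hochberg adjustment over all genes tested. The interaction was fitted over 16 libraries. CPM use TMM-scaled library sizes within a line, and RPKM divide them by the exon length. Alternatives were filterByExpr, a mean of 1 CPM, no filter, RLE or total-count scaling, DESeq2 1.42.0, limma-voom (limma 3.58.1), a joint fit of 16 libraries, the replicate number as a block and leaving out each library. The scripts were tested on simulated counts. Tables and figures were made with Python 3.11.15, pandas 2.3.3, SciPy 1.17.1 and Matplotlib 3.10.9.

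Depth was 15680459 to 23451253 counts per library. Counting intervals and floors of 3 counts cover counting error only. The biological coefficient of variation common to all genes was 0.0998 for MDA-MB-231 libraries and 0.186 for those of SUM159PT.

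Histone genes with a mean of 1 CPM or more in a line could be named, as could the most abundant gene of each class and up to 5 called genes of each sign with the largest fold change; near-identical copies, runs and pairs were named after their values were seen. Of the 7 other lists, key genes and up to 3 called members of each sign were named. The members, lists and alternatives were chosen with earlier results of these data known.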

Additional observations from a re-analysis of the deposited data

Results flagged for a closer look

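In 5 of 93 groups of 4 libraries, 1 library lay further from the others than Dixon's 95% critical value allows; chance alone gives about 1 in 20. HIST1H2BD, which fell in both lines, had 1.86 CPM in SUM159PT siYES1 replicate 3, against 4.34 to 4.65 CPM in the other siYES1 libraries. HIST1H2AG in MDA-MB-231 siYES1 replicate 2 was at 4.71 CPM, against 3.76 to 3.79 CPM in the others, which is why its groups overlap. HIST1H2BC in MDA-MB-231 siNS replicate 1 was at 12.4 CPM, against 9.14 to 9.32 CPM in the others. HIST1H4C had 0.281 CPM in SUM159PT siNS replicate 1 and 0 in the other siNS libraries, and HIST2H2AA3 had 0 in SUM159PT siYES1 replicate 4 and 0.0530 to 0.0547 CPM in the others, both on a handful of counts.

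The siYES1 fold change differed between the lines in the interaction test for 3 of 28 histone genes, against 22.5% of all genes. Each of the 3 was higher in SUM159PT than in MDA-MB-231. The differences were 2.05 log2 units for HIST2H2BE, 1.49 for HIST1H1C and 1.01 for HIST1H2AC.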

How the results depend on the processing

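The 3 genes called for the difference between lines kept their call in all 24 alternatives. In MDA-MB-231 the log2 fold change of named genes kept its side of the threshold in 333 of 366 repeats, was no longer called in 29 and changed sign in 4; in SUM159PT it did so in 336 of 377, with 24 lost, 12 gained and 5 changes of sign. The median of the histone genes in MDA-MB-231 was -0.89 with filterByExpr and -0.90 at a mean of 1 CPM, which leave fewer rare genes in the test, and -0.36 to -0.073 leaving out 1 library. There 3 rose at a mean of 1 CPM and 2 in the joint fit, where all genes had 2180 rising, against 3708 in the fit of that line alone; the joint fit shares 1 estimate of the spread between the lines. Leaving out 1 library gave 16 to 19 calls, 4 to 6 of them higher and 12 to 14 lower. In SUM159PT the median was -0.57 with no filter, -0.84 with total counts and -0.83 to -0.47 leaving out 1 library. Total counts moved the median of all genes to -0.25 there, against -0.08, and all-gene calls to 1341 higher and 4175 lower, against 2454 and 2766. The joint fit called 13 histone genes in SUM159PT, and HIST1H1C was the 1 called higher with no filter, in the joint fit and in the replicate block; leaving out 1 library gave 4 to 8 calls, 4 to 8 lower and 0 to 1 higher. The difference between lines had 5 calls with no filter and with limma-voom, 2 of them lower in SUM159PT in each, and DESeq2 called 1 lower; leaving out 1 library gave 3 to 6 calls, 3 to 4 higher and 0 to 2 lower. Leaving out 1 library moved HIST1H2BJ between -0.15 and 0.15 and HIST2H2BF between -0.40 and 0.18 in MDA-MB-231, and HIST2H2AC between -0.22 and 0.081 and HIST2H2BE between -0.23 and 0.050 in SUM159PT. Where no construction is named, the cause was not tested.

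The shared replicate numbers were not treated as pairs in the main fits. Deviations from the group means correlated between same-numbered libraries by -0.216 to 0.0568 in MDA-MB-231 and -0.0859 to 0.1502 in SUM159PT. Between differently numbered libraries the correlations were -0.301 to 0.325 in MDA-MB-231 and -0.143 to 0.134 in SUM159PT. With 4 libraries in a group these values cannot settle whether the numbers pair the libraries. With the replicate number as a block, 19 histone genes were called in MDA-MB-231, 8 in SUM159PT, of which 7 were called without it, and 3 for the difference between lines. Counts limit the rarer genes: 21 of 38 tested in MDA-MB-231 and 26 of 40 in SUM159PT were under 1 CPM.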
